A study of Mus musculus with 4 samples.

Results

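The loci described here are those of 5 inhibitory receptors of T cells, Tigit, Btla, Pdcd1 (PD-1), Lag3 and Havcr2 (Tim-3), and of the 2 ligands of PD-1, Cd274 (PD-L1) and Pdcd1lg2 (PD-L2). They were chosen by gene, and every listed peak whose centre lies within 50 kb of an annotated transcription start site (TSS) of one of the 7 genes was taken as belonging to them. This gave 137 of the 103355 peaks in 4 lists, namely 46 of 29659 JunB peaks, 24 of 13570 BATF peaks, 31 of 31093 IRF4 peaks from Junb-sufficient cells and 36 of 29033 IRF4 peaks from Junb-deficient cells. A peak is a place where chromatin immunoprecipitation-sequencing (ChIP-seq) recovered more DNA fragments than in the surroundings. The cells were regulatory T (Treg) cells of C57BL/6 mice, CD4+CD25+ cells from spleen by the study's methods, activated for 60 h with anti-CD3 and anti-CD28 antibodies and IL-2. The labels give the genotypes as Foxp3cre JUNB+/+ and Foxp3cre JUNBFl/Fl, a Cre driven by a Treg gene in both groups, whereas the methods describe Junb fl/fl mice without Cre and Cd4Cre Junb fl/fl mice, in which Cre acts in all T cells from the CD4-expressing stage. The methods give the mice as 6 to 12 weeks old and matched by sex. Each of the 4 groups was 1 library, so no difference between groups has a replicate check and none was tested. In the labels' antibody field, BATF and IRF4 are swapped for the Junb-sufficient libraries relative to their titles, and the titles were followed.

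Inhibitory receptors dampen signals from the T cell receptor, some of them through phosphatases recruited to their cytoplasmic tails or by competing with activating receptors for a ligand. Treg cells carry several of them on activation, and TIGIT and PD-1 also mark effector Treg cells. JunB and BATF are AP-1 (activator protein 1) factors that bind DNA as dimers, and IRF4 binds next to such dimers at AP-1-IRF composite elements (AICE). The lists are of binding and not of expression, and they do not measure JunB itself in the Junb-deficient cells.

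The sites bound by JunB, BATF and IRF4 together that stood highest in the IRF4 list are shown first, 1 for each gene that has one, because the comparison between genotypes turns on such sites. Each is the whole JunB peak of 151 bp, from the plus strand of mm9, and capitals mark matches to AP-1 (TGANTCA), the interferon-stimulated response element (ISRE, GAAA, any 2 bases, GAAA) or the cyclic AMP response element (CRE, TGACGTCA) on either strand. All of these were listed for IRF4 in both genotypes. The Tigit site (chr16:43655432-43655582) and the Havcr2 site (chr11:46287849-46287999) lie in introns of their genes, the Btla site (chr16:45223818-45223968) lies just upstream of the TSS, and the Pdcd1 site (chr1:95931936-95932086) lies downstream of the gene. The Cd274 site (chr19:29465846-29465996) is intergenic, between the ligand genes, and the Pdcd1lg2 site (chr19:29528601-29528751) lies in an intron. At Btla, a higher site within an untranslated region is not shown.
Tigit: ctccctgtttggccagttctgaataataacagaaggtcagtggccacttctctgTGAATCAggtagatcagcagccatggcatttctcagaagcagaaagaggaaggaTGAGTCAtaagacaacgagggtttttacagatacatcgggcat
Btla: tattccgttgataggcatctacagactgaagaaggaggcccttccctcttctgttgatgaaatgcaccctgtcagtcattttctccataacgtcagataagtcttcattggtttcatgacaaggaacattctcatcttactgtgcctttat
Pdcd1: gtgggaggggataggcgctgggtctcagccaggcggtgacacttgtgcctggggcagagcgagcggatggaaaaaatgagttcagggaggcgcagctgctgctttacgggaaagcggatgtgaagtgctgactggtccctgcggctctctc
Havcr2: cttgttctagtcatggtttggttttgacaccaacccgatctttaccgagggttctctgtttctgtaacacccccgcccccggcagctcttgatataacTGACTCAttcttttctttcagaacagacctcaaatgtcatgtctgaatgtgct
Cd274: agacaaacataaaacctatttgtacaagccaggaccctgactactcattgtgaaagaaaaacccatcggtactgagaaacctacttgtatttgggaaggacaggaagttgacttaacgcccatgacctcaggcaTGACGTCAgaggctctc
Pdcd1lg2: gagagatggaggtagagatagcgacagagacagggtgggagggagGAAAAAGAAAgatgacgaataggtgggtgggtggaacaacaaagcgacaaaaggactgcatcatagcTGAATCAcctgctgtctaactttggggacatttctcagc

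Of the triple sites whose IRF4 peak had no Junb-deficient counterpart, those at Havcr2 (chr11:46260746-46260896, upstream of the gene) and Tigit (chr16:43649285-43649435, in an intron) are shown. Neither holds a match to any of the motifs searched, so both stand in lower case. The third such site, centred in an intron of Pdcd1lg2 (chr19:29496717-29496867), has an AP-1 match within 100 bp of its centre and is not shown because it overlaps an annotated untranslated region.
Havcr2 missing: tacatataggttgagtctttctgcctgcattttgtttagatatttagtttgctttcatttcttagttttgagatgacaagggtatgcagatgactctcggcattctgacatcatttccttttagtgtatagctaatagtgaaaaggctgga
Tigit missing: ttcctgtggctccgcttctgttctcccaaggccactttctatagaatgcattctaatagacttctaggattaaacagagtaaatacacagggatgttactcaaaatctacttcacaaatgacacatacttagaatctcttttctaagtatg

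Further sequences were chosen after the matches were seen. The first is 151 bp around the centre of the IRF4 peak in an intron of Lag3 (chr6:124857829-124857979), where no JunB peak was listed, with the AP-1 match in capitals. The second is a peak of the JunB list alone upstream of Tigit (chr16:43694279-43694429), which holds the one AICE match among the 137 peaks, in capitals.
Lag3: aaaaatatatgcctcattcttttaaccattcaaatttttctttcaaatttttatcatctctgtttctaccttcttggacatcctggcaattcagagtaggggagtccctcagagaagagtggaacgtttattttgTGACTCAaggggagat
Tigit JunB only: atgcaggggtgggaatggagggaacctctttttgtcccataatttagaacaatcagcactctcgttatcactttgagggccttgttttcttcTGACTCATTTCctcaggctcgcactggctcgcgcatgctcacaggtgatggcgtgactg

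Tigit and Havcr2 held the most JunB peaks, and Lag3 held none. There were 13 JunB peaks at Tigit, 12 at Havcr2, 9 at Pdcd1lg2, 7 each at Btla and Cd274, and 4 at Pdcd1. Over 22238 protein-coding genes the median was 1 JunB peak, 0.531% had at least as many as Tigit, 0.706% at least as many as Havcr2, and 35.2% had none, as Lag3. BATF peaks numbered 8 at Tigit, 5 at Havcr2, 4 at Pdcd1lg2, 3 each at Btla and Cd274, 2 at Pdcd1 and 1 at Lag3. At least as many BATF peaks as at Tigit occurred at 0.252% of coding genes, where the median was 0. IRF4 peaks spread more evenly, with 8 at Tigit, 5 each at Btla, Havcr2, Cd274 and Pdcd1lg2, 3 at Pdcd1 and 2 at Lag3, against a median of 2. At least 5 IRF4 peaks occurred at 18.0% of coding genes and at least 8 at 2.76%. In Junb-deficient cells IRF4 had 8 peaks at Tigit, 7 at Pdcd1lg2, 6 each at Btla and Cd274, 5 at Havcr2 and 4 each at Pdcd1 and Lag3. At least 4 such peaks occurred at 28.2% of coding genes. The TSSs of Cd274 and Pdcd1lg2 are 43464 bp apart, so their windows share peaks. Counted once, the ligand genes had 10 JunB, 5 BATF, 8 IRF4 and 9 Junb-deficient IRF4 peaks.

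**Figure D1:**
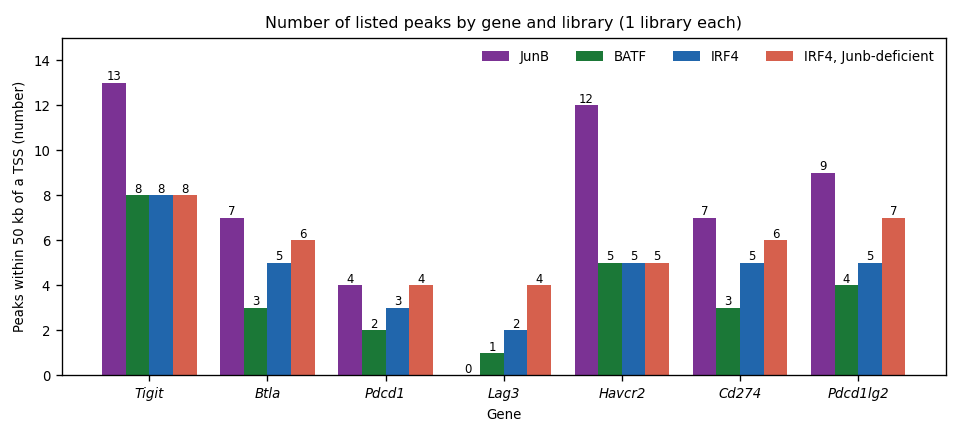
Number of listed peaks (y axis) with a centre within 50 kb of a TSS of each gene (x axis), with 1 bar per library. Tigit and Havcr2 carry 13 and 12 JunB peaks and Lag3 carries 0. Junb-deficient IRF4 peaks number from 4 to 8 at every gene, against a median of 2 over coding genes. At least 4 occur at 28.2% of coding genes and at least 8 at 2.27%. Peaks shared by the windows of Cd274 and Pdcd1lg2 are counted for both.

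The score column of the lists is 1 for every peak, so the place of a peak in its list, as a percent of the list counted from the top, was used in place of a height. How the lists were ordered is not given. With the Junb-sufficient IRF4 list cut into 10 equal parts, 5.05% of the peaks in the first part and 67.9% of those in the last had no Junb-deficient counterpart, so the place carried information. Peaks at the 7 genes stood high. Their median place was 23.4% for JunB, 22.7% for BATF, 18.0% for IRF4 and 13.7% for IRF4 in Junb-deficient cells, against 46.4%, 50.03%, 50.2% and 50.04% for peaks within 50 kb of any protein-coding TSS. Of the 31 IRF4 peaks, 13 stood in the first of the 10 parts of the list and 25 in the first 5.

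**Figure D2:**
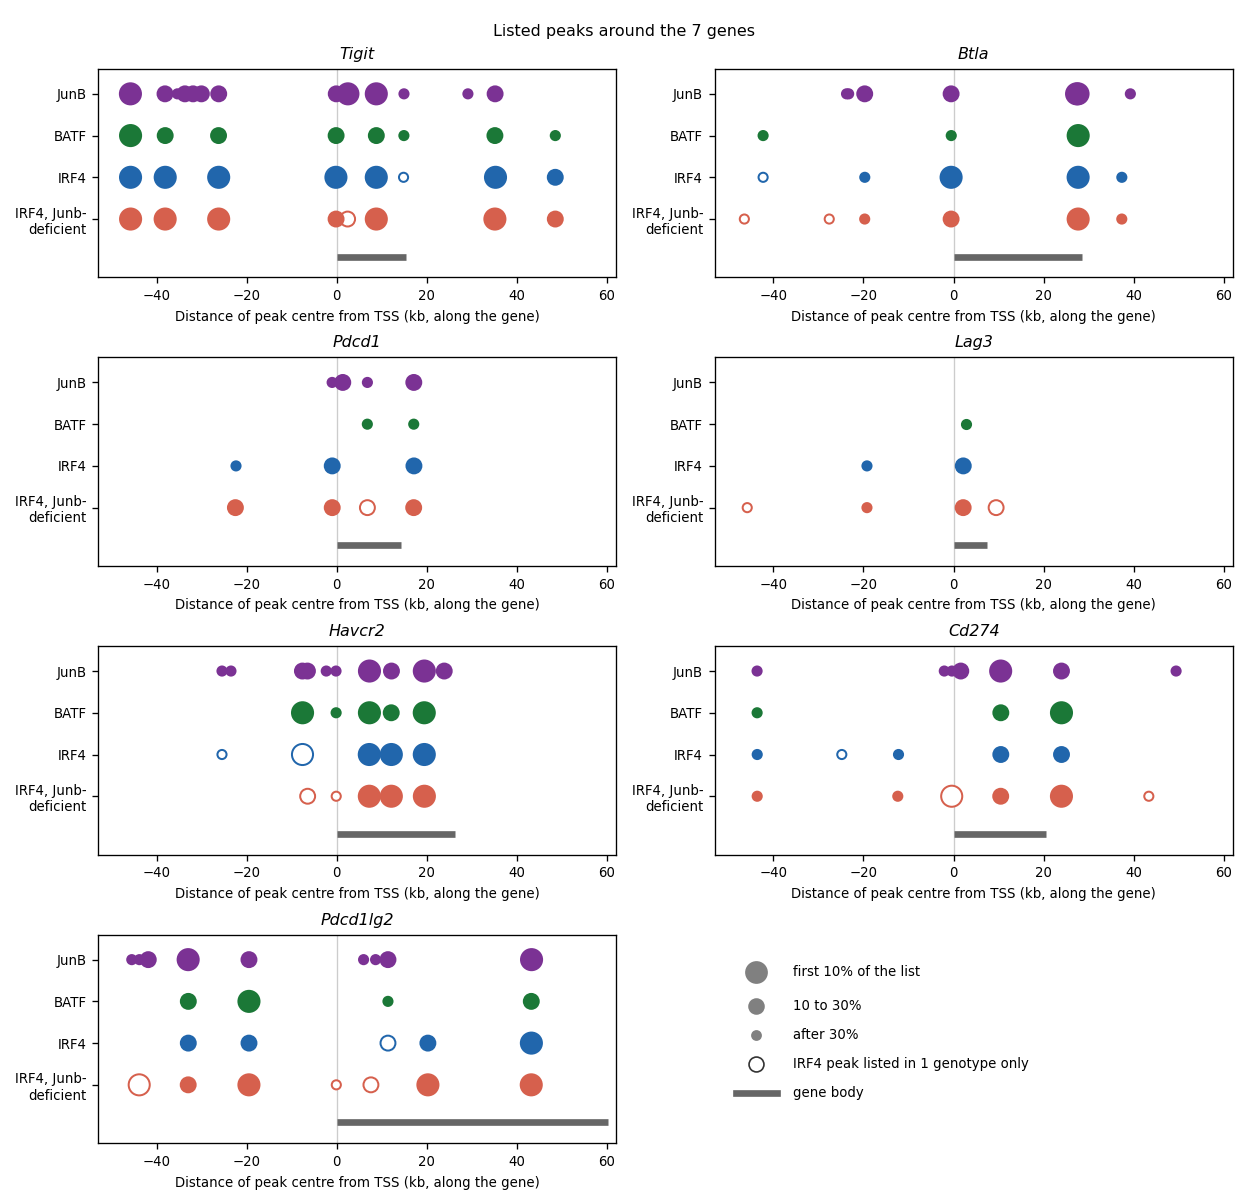
Listed peaks around each of the 7 genes, by distance of the peak centre from the nearest TSS of the gene in kb along the direction of the gene (x axis) and by library (lines). Larger points stand higher in their list, and open points are IRF4 peaks listed in 1 genotype only, of which there are 6 from Junb-sufficient and 11 from Junb-deficient cells. Peaks between Cd274 and Pdcd1lg2 appear in both panels.

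JunB, BATF and IRF4 shared many sites at these genes. Of the 46 JunB peaks, 20 (43.5%, exact binomial 95% interval 28.9 to 58.9%) met peaks of BATF and of IRF4 alike, by at least 1 bp. The same was true of 30.1% of all JunB peaks and of 34.1% of those within 50 kb of a coding TSS, and both values lie within the interval. JunB peaks that overlapped neither factor numbered 21 (45.7%), against 54.3% of all and 47.8% near coding genes. Such intervals cover counting error over peaks only. Among the IRF4 peaks these shares lay above those of the whole list. Of 31 IRF4 peaks, 22 (71.0%, 52.0 to 85.8%) overlapped a JunB peak, against 40.3% of all IRF4 peaks and 38.5% near coding genes, and 19 (61.3%, 42.2 to 78.2%) overlapped JunB and BATF peaks, against 28.8% and 27.4%. Among the 24 BATF peaks, 21 (87.5%) overlapped JunB, against 70.7% of all and 69.9% near coding genes, and 22 (91.7%) overlapped IRF4, against 88.6% and 88.5%. Peaks high in their lists were common here, and the part of list place in these shares was not tested.

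The question put by the Junb-deficient library is whether IRF4 binding depends on JunB. Of the 31 IRF4 peaks at the 7 genes, 6 (19.4%, exact binomial 95% interval 7.45 to 37.5%) had no overlapping peak in Junb-deficient cells, against 35.0% of all IRF4 peaks and 34.3% of those near coding genes. In the same 10 parts of the list, the share over all peaks would give 5.65 missing peaks (18.2%), so the count differed from that of peaks of like place by less than 1 peak. At JunB peaks 4 of 22 were missing (18.2%, against 23.8% of all and 23.4% near coding genes), and at sites of JunB and BATF 3 of 19 (15.8%, against 16.4% and 16.0%). Away from JunB peaks 2 of 9 were missing (22.2%, against 42.5% and 41.1%). With the antibody field taken as it stands, 4 of 24 peaks (16.7%) were missing. The shares above are for the list titled IRF4, and no share over all peaks is given for this reading. The reverse case was found as well. Of 36 Junb-deficient IRF4 peaks, 11 (30.6%, 16.3 to 48.1%) had no Junb-sufficient counterpart, against 30.4% of all and 30.2% near coding genes, and 5.28 peaks (14.7%) by the share in the same parts of the list. Of these 11, 5 (45.5%, 16.7 to 76.6%) lay at a JunB peak of Junb-sufficient cells, against 8.59% of all such peaks and 8.46% near coding genes. Counted the other way, 5 of the 23 Junb-deficient IRF4 peaks at JunB peaks (21.7%, 7.46 to 43.7%) had no Junb-sufficient counterpart, against 7.44% and 7.63%. Of the last values, 7.63% lies inside the interval and 7.44% just below it. The 8.59% and 8.46% lie below theirs, and the 14.7% from like list place lies below its own. These shares at JunB peaks were not set against peaks of like list place, and the part of list place in them was not tested. Among the 5 was a Havcr2 peak, described below, with its centre 1144 bp from a Junb-sufficient peak. The Junb-sufficient list was called with centres at least 1224 bp apart.

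**Figure D3:**
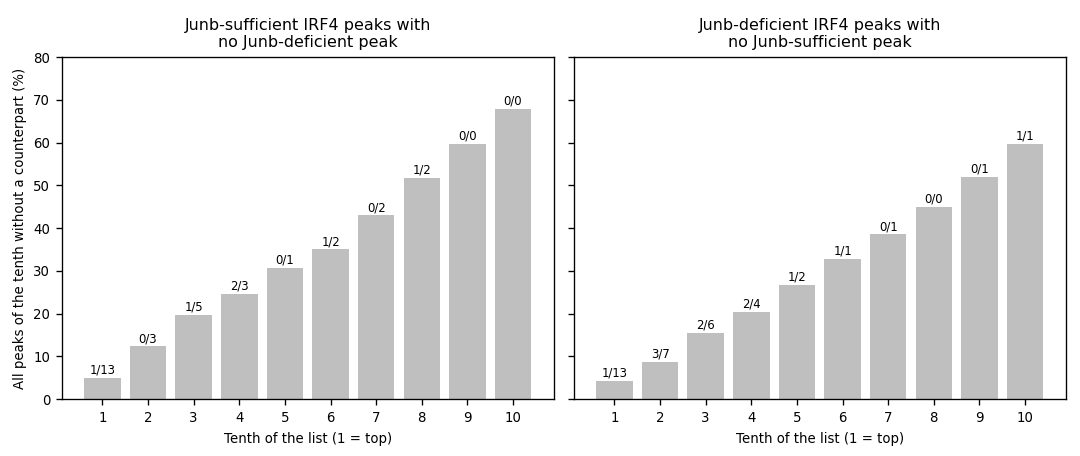
Percent of IRF4 peaks without a counterpart in the other genotype (y axis) by part of the list, cut into 10 equal parts numbered from the top (x axis), for Junb-sufficient (left) and Junb-deficient (right) lists. Bars are all peaks, rising from 5.05% to 67.9% on the left, and the numbers above them give peaks without a counterpart out of all peaks at the 7 genes in that part, such as 1/13 in the first part of each list.

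TIGIT, a receptor for the poliovirus receptor Pvr, is encoded on the minus strand of chromosome 16 (mm9, 43648974 to 43664297). Of the 13 JunB peaks in its window, 7 were triple sites, and 5 were in no other list. The promoter, a site 8.79 kb inside the gene and sites 26.2, 38.1 and 45.8 kb upstream were listed for all 4 libraries, as was one 35.2 kb downstream of the TSS in the neighbouring Zbtb20, a zinc finger gene. The intronic site 8.79 kb from the TSS stood at 2.29% of the JunB list, 10.2% of the BATF list, 2.37% of the IRF4 list and 1.18% of the Junb-deficient IRF4 list, near the top of every list but that of BATF. Another site in Zbtb20, 48.5 kb from the TSS of Tigit, had BATF and IRF4 peaks but no JunB peak. Of 8 IRF4 peaks 7 were kept. The one missing stood 14.8 kb inside the gene at 50.6% of the list, where 35.1% of all peaks of its part of the list were missing. At Tigit some kept IRF4 peaks were listed nearer the top in Junb-deficient cells and others farther down. The peak 26.2 kb upstream moved from 8.74% to 2.10% and that at 38.1 kb from 9.78% to 4.47%, while the one at 45.8 kb stood at 3.34% and 3.62%. Of all kept IRF4 peaks, 30.7% moved as far up as the first of these in points of list place and 1.14% as a ratio of places. The promoter peak stood at 8.27% and 10.2%. That in Zbtb20, 35.3 kb downstream of the TSS, moved from 6.58% to 2.54%. An intronic JunB peak 2.49 kb from the TSS, at 7.01% of its list, had an IRF4 peak in Junb-deficient cells alone, at 10.6%.

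BTLA, which binds the receptor encoded by Tnfrsf14, lies on the plus strand of chromosome 16 (45224428 to 45253008). Its highest site covered the 3′ untranslated region 27.7 kb from the TSS, at 3.87% of the BATF list, 1.09% of the IRF4 list and 0.365% of the Junb-deficient IRF4 list, and held a pair of JunB peaks at 5.98% and 9.73%. Just upstream of the TSS a site of all 4 libraries had its IRF4 peak at 8.27% and 12.1% in the respective genotypes. A peak 19.7 kb upstream stood at 69.4% and 89.4%, the largest move down in points among kept peaks at the 7 genes. As a ratio of places it was 1.29-fold, below the 1.75-fold of the Havcr2 peak 7.23 kb from its TSS. The missing IRF4 peak lay 42.3 kb upstream in an intron of Atg3, an autophagy gene, at 36.3% of the list, where BATF but not JunB was listed. Peaks in Junb-deficient cells alone lay 27.6 and 46.5 kb upstream, both off JunB and BATF peaks.

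PD-1, encoded by Pdcd1 on the minus strand of chromosome 1 (95934884 to 95949130), had 3 IRF4 peaks, and all were kept. The peak at the promoter, 0.998 kb upstream of the TSS, stood at 20.3% and 23.7% in Junb-sufficient and Junb-deficient cells, and that 17.1 kb downstream of the TSS, past the end of the gene, at 23.4% and 26.5%, so both were in almost the same place. The peak 22.4 kb upstream, off JunB and BATF peaks, stood at 77.7% in Junb-sufficient and 24.8% in Junb-deficient cells. Of all kept IRF4 peaks, 0.717% moved as far up in points and 2.72% as a ratio of places. This was the largest move up among kept peaks at the 7 genes in points, whereas as a ratio of places it was 3.14-fold, below the 4.15-fold of the Tigit peak 26.2 kb upstream and the 3.28-fold of the site between the ligand genes. An intronic site 6.81 kb from the TSS was listed for JunB at 39.3%, for BATF at 68.0% and for IRF4 in Junb-deficient cells alone, at 28.4%. A JunB peak 1.34 kb inside the gene, at 25.4%, was in no other list.

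LAG-3, a relative of CD4 that binds major histocompatibility complex class II, lies on the minus strand of chromosome 6 (124854379 to 124861723), in a window crowded with other genes. No JunB peak was listed within 50 kb. An intronic IRF4 peak 2.17 kb from the TSS stood at 18.0% in Junb-sufficient and 11.0% in Junb-deficient cells. A BATF peak at 56.2% overlapped it only at the edge, with its centre 2.67 kb from the TSS. The other Junb-sufficient IRF4 peak, 19.2 kb upstream and 463 bp from the TSS of Mlf2, stood at 44.3% and 34.9%. Both were thus kept and listed nearer the top in Junb-deficient cells. Peaks in Junb-deficient cells alone lay 9.46 kb downstream of the TSS, past the end of the gene, at 22.3% and 45.8 kb upstream, next to Cops7a, at 96.7%.

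Tim-3, encoded by Havcr2 on the plus strand of chromosome 11 (46268437 to 46294757), marks strongly activated T cells. Its highest sites were intronic, 7.23, 12.1 and 19.4 kb from the TSS, and were listed in all 4 libraries. Their IRF4 peaks stood at 1.58%, 1.52% and 0.318% in Junb-sufficient cells and at 2.77%, 2.30% and 0.413% in Junb-deficient cells, all near the top of both lists. The last of these stood at 0.737% of the BATF list and 1.61% of the JunB list. Upstream of the gene the IRF4 lists differed. The peak 7.6 kb upstream, a triple site at place 1492 of 31093, was missing in Junb-deficient cells, as were 5.05% of all peaks of its part of the list. It was the highest missing peak at the 7 genes. A Junb-deficient peak at 15.3%, 6.46 kb upstream and at a JunB peak, had its centre 1144 bp away. The Junb-deficient list was called with centres at least 1210 bp apart, so peaks at both positions could not have been listed, and whether tags remained at the first was not tested. With centres within 2 kb counted as shared, a setting chosen after the data were seen, 5 of the 31 IRF4 peaks at the 7 genes (16.1%) were missing. The share over all IRF4 peaks at that setting is not given. The other missing peak lay 25.5 kb upstream, nearer to Med7, at 37.9%. At the TSS, JunB at 40.8% and BATF at 42.5% were joined by IRF4 in Junb-deficient cells alone, at 34.3%.

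PD-L1, encoded by Cd274 on the plus strand of chromosome 19 (29441945 to 29462585), and PD-L2, encoded downstream by Pdcd1lg2 (29485409 to 29545647), share the intergenic triple site printed above, 19.5 kb upstream of Pdcd1lg2. Its IRF4 peak stood at 12.5% in Junb-sufficient and 3.81% in Junb-deficient cells. Of all kept peaks, 26.7% moved as far up in points and 2.37% as a ratio of places. The intronic triple site of Cd274, 10.5 kb from the TSS, stood at 14.5% and 11.9%. At the Cd274 promoter, 0.4 kb upstream, IRF4 was listed in Junb-deficient cells alone, at 8.26%, over a JunB peak at 76.4% of its list. The same position lies in an intron of 5033414D02Rik, 253 bp from its TSS. This was the highest of the 11 peaks found in Junb-deficient cells alone. The missing peak of the Cd274 window lay 24.8 kb upstream, nearer to Rln1, at 79.5% and off JunB and BATF peaks. In Pdcd1lg2, the IRF4 peak 43.2 kb inside the gene stood at 1.65% and 1.77%, and that at 20.2 kb, off JunB peaks, at 23.7% and 9.11%. The intronic triple site 11.4 kb from the TSS, at 22.0%, was missing, and the nearest Junb-deficient peak, at 19.6%, had its centre 3787 bp away. A further peak in Junb-deficient cells alone lay 91 bp from the Pdcd1lg2 TSS, at 53.3%.

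The kept IRF4 peaks moved in both directions. Of 25, 13 stood nearer the top in Junb-deficient cells and 12 farther down, and the median shift was -0.72 points of list place (order-statistic 95% interval -5.30 to 1.18), against 0.298 over all 20218 kept peaks. At JunB peaks, 7 of 18 kept peaks stood nearer the top, against 38.9% of all kept peaks at JunB, and the median shift was 0.199 points, against 2.20. With the antibody field taken as it stands, the median shift over 20 peaks was -10.8 points, with the library titled BATF standing for IRF4. No median over all kept peaks is given for that reading.

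**Figure D4:**
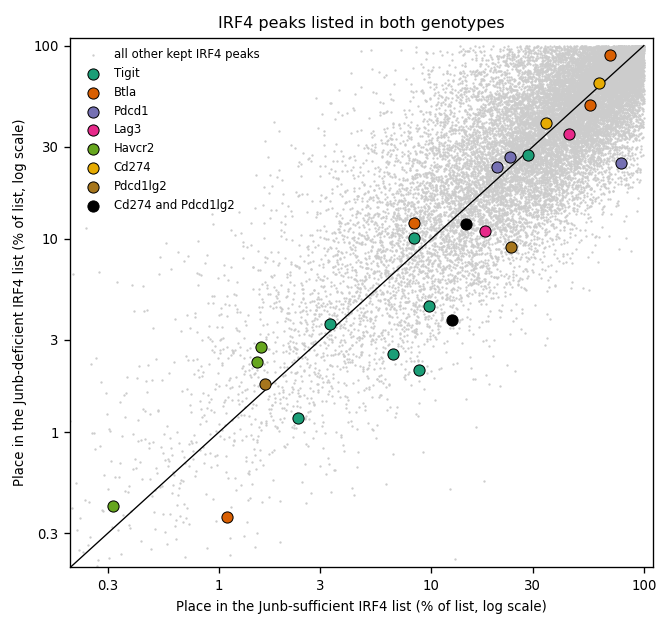
Place of each IRF4 peak listed in both genotypes, as percent of the list on log scales, in Junb-sufficient (x axis) and Junb-deficient cells (y axis). Grey points are all other kept peaks and coloured points the 25 peaks at the 7 genes, of which 13 lie below the line of equal place. The Pdcd1 peak at 77.7% and 24.8% lies farthest from the line in points.

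AP-1 was the motif matched most often at these genes, and AICE matched 1 peak in all. Within 100 bp of the peak centre, 10 of 31 IRF4 peaks (32.3%, 16.7 to 51.4%) held an AP-1 match, against 30.9% of IRF4 peaks near coding genes. Of 46 JunB peaks 19 did (41.3%, 27.0 to 56.8%), against 34.0%. AP-1 matches were found in 9 of 25 kept IRF4 peaks and in 1 of 6 missing ones, that of Pdcd1lg2. No AP-1 share over all kept or all missing IRF4 peaks is given, and the difference was not tested. ISRE matches were found in 3 of 31 IRF4 peaks, against 8.87%. AICE with spacing (TTTC, any 4 bases, then TGANTCA), adjacent AICE (GAAA directly followed by TGANTCA) and the ETS-IRF element (GGAA, any 2 bases, GAAA) matched 0 of 31, which allows up to 11.2% by the exact interval, and occurred in 1.12%, 1.59% and 3.69% of IRF4 peaks near coding genes. Each AICE match contains an AP-1 match. The JunB peak with the adjacent AICE, 30.1 kb upstream of Tigit at 26.5% of its list, overlapped no peak of any other list. Adjacent AICE occurred in 1.57% of JunB peaks near coding genes. The CRE, added after the data were seen, matched 1 of 31 IRF4 peaks, the shared ligand site, against 0.918%.

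Among 23 other genes of these pathways, comprising further receptors, ligands and phosphatases, 28 IRF4 peaks (27.7%, 19.3 to 37.5%) were missing in Junb-deficient cells and 73 were kept, against 34.3% missing near coding genes. That value lies inside the interval, and no share for peaks of like list place is given for these genes. The missing peaks came from 14 genes. Of their 108 JunB peaks 30 (27.8%) were triple sites. The median was 2 JunB, 1 BATF and 4 IRF4 peaks per gene. Ctla4, a receptor for Cd80 and Cd86, held the most peaks, 44 in all, with 5 of 12 IRF4 peaks missing. Cd86 followed with 36, and all 10 IRF4 peaks were kept. Fgl1, a ligand of LAG-3, held the fewest, with 2. Pvr, a ligand of TIGIT, had 3 of 8 IRF4 peaks missing, and Lgals9, a ligand of Tim-3, had 3 of 4. Of these missing peaks, 2 of the 3 at Pvr and all 3 at Lgals9 lay off JunB peaks. Other ligand genes went the other way, with 0 of 3 missing at Tnfrsf14 and 0 of 2 at Pvrl2. Over the ligand genes together 13 of 48 IRF4 peaks were missing. These were 11 of 30 off JunB peaks, against 42.5% of all such IRF4 peaks, and 2 of 18 at JunB peaks, against 23.8%. The further receptor genes differed, with 13 of 37 missing, namely 7 of 21 at JunB peaks and 6 of 16 off them. Over all 23 genes, 10 of 50 at JunB peaks and 18 of 51 off them were missing.

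The lists rested on 21.1 to 27.4 M tags (M standing for mega), of which 4.27 to 12.76% lay in peaks. The Treg marker genes Foxp3, Il2ra, Ikzf2 and Tnfrsf18 had from 2 to 12 JunB and IRF4 peaks each, and BATF had none at Ikzf2. The myeloid genes Csf1r and Lyz2 had no peak in any list, whereas Itgam had 6 JunB and 9 IRF4 peaks. The B cell gene Cd79a had 1 IRF4 peak, and Ms4a1 had none in Junb-sufficient cells. Cd8b1 had 6 JunB and 2 IRF4 peaks, and Cd8a 2 of each. Peaks near a gene do not measure its expression, and the cell type is not settled by these counts.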

How the data were processed

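Peak positions from ChIP-seq of JunB, BATF and IRF4 in activated Treg cells were taken from 4 libraries, 1 per group. Chromatin was cut with micrococcal nuclease and sonicated. Reads were aligned by the authors with Bowtie2 (mm9, unique positions kept), and peaks were called in each library with HOMER (version 4.8 in the submitters' processing notes, another in the paper's methods) at a false discovery rate of 0.001, at least 4-fold above the surrounding 10 kb and with at most 1 tag per bp. The deposited files give peak positions and a score of 1 for every peak, with no tag counts per peak. JunB peaks were 151 bp wide and called from 10 tags, those of the other lists 605 to 613 bp from 19 tags, and the local filter removed 5.25% of JunB and 36.2 to 37.4% of other putative peaks. Tags after the 1 per bp limit were 16.0 to 17.9 M.

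Genes and TSSs were from GENCODE for the same assembly, and 0 peaks lay past a chromosome end. Introns and untranslated regions refer to protein-coding genes. Overlap meant at least 1 bp. Distances in the text are from the peak centre to the nearest TSS of the gene. Intervals are Clopper-Pearson 95% intervals. Motifs were matched as fixed strings on both strands within 100 bp of the peak centre. Named were the 7 genes, their peaks, the nearest coding genes, and other pathway genes with the most and fewest peaks. Pvr, Lgals9, Tnfrsf14 and Pvrl2 were added as ligands after their values were seen. Members and lists were chosen with earlier results of these data known. Python 3.11.15, NumPy 2.4.6, SciPy 1.17.1 and matplotlib 3.10.9 were used, and the procedures were tested on simulated data. RNA-seq and ChIP-PCR were not analysed here, and 1 of the marker genes is not reported here.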

Additional observations from a re-analysis of the deposited data

How the results depend on the processing

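The share of IRF4 peaks missing at the 7 genes lay between 13.6% and 29.0% over 10 alternatives, and the share of JunB peaks with BATF and IRF4 lay between 38.4% and 51.5% over 8. The lowest missing share came from keeping only peaks whose nearest coding TSS belongs to one of the genes (3 of 22) and the highest from requiring centres within 100 bp (9 of 31). No share over all IRF4 peaks is given under either rule. These values therefore cannot be set against the 35.0% found with overlap of 1 bp. AP-1 matches in IRF4 peaks ranged from 25.8% to 38.7% with the window. The number of peaks was 90 within 25 kb and 230 within 100 kb, against 137. The median shift of kept peaks became -10.8 points with the antibody field exchanged, and 0.44 within 25 kb and 0.69 within 100 kb, values inside its interval. Among the 23 other genes the missing share was 45.5% with centres within 100 bp, against 27.7%. Of the counts per gene, 67 stayed within 1.5 times and 31 did not. With 1 library per group, no replicate could be left out. No paired analysis was possible because each group holds 1 library and no test was made. The lists keep no tags per peak, so a peak just under the caller's threshold cannot be told apart from one with no tags.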
